A study of Mus musculus with 2 samples.

Results

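The miR-34/miR-449 family is a group of 6 mouse miRNA genes, Mir34a, Mir34b, Mir34c, Mir449a, Mir449b and Mir449c, taken by gene name from the 1973 genes of the deposited tables. All 6 were found in both tables. Small RNA was sequenced from neural tube of Mus musculus B6NCrl embryos at embryonic day 13.5, from which brain and spinal cord develop. The 2 libraries, numbered as biological replicates in the labels, are healthy tissue from pooled male and female embryos and share 1 donor entry. There was 1 condition and no treated or mutant group, so the comparisons set the family's loci against each other and replicate 2 against replicate 1. The number of embryos in each pool is not given in the sources used here.

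MiRNAs are short RNAs that lower the output of matching mRNAs, and the bases 2 to 8 of the mature strand, called the seed, set most of the match. The miR-34/miR-449 miRNAs share 1 seed and come from separate loci. They are best known for helping epithelial cells build many motile cilia, in part by repressing inhibitors of centriole maturation such as Ccp110. Mice that lack both the Mir449 cluster and the Mir34b/c cluster have too few motile cilia. In the central nervous system, multiciliated cells are found in the choroid plexus and, after birth, in the ependyma. Mir34a and Mir34b/c are also direct targets of the tumour suppressor p53.

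The mature strands of the family are shown because they define it. The sequences are those of RefSeq on GRCm38.p6, with the seed in capitals, and the counts described later add up both strands of each hairpin.

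mmu-miR-449a-5p: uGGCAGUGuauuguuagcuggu

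mmu-miR-449c-5p: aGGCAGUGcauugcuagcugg

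mmu-miR-34b-5p: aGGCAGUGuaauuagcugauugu

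mmu-miR-34a-5p: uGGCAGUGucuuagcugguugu

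mmu-miR-34b-3p: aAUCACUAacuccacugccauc

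mmu-miR-34c-3p: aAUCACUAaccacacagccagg

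All 4 of these 5p strands carry the seed GGCAGUG, and they were the only 4 of the RefSeq mature entries used here to do so. Mir449b and mmu-miR-34c-5p had no entry. The 3p strands of Mir34b and Mir34c share a different seed, AUCACUA, which no other entry carried. The 3p strands of Mir34a, Mir449a and Mir449c each had a seed of their own. Each of these strands occurred at 1 locus. Among these 4 5p strands, the closest pairs, mmu-miR-34a-5p with mmu-miR-34b-5p and mmu-miR-449a-5p with mmu-miR-449c-5p, were 4 single-base edits apart. The distances of mmu-miR-34c-5p and of the Mir449b strands to the others were not measured. The longest stretch that any member's hairpin shared with another miRNA gene was 14 nt, between Mir449a and Mir679. None reached the 20 nt used here as the mark of a copy whose reads could map to several places.

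The 6 genes lie at 3 loci, with coordinates from GENCODE M21 on GRCm38 (mm10). The Mir449 genes form a cluster of 1642 bases on the plus strand of chromosome 13, within introns of Cdc20b, a gene of the locus switched on in multiciliated cells. Mir449c lies at 113035983 to 113036091, Mir449b at 113037419 to 113037498 and Mir449a at 113037534 to 113037624, the last pair 36 bases apart. Mir34b (51103562 to 51103645) and Mir34c (51103034 to 51103110) lie 452 bases apart on the minus strand of chromosome 9. They fall in an intron of Btg4, which runs on the opposite strand. Mir34a (chromosome 4, 150068454 to 150068555, plus strand) overlaps an exon of Gm37795, an unclassified transcript model of the same strand.

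The libraries held 5738209 counts on the same strand as the miRNA genes in replicate 2 and 7019469 in replicate 1. Levels are given as CPM (counts in every 1000000 of these totals), and errors as the SD of the 2 libraries. Unmapped reads made up 12.2% of all reads in replicate 2 and 17.4% in replicate 1. Reads that mapped to several places, in no gene's count, made up 31.0% of all reads in replicate 2 and 28.5% in replicate 1. The neural miRNA list, chosen for the labelled tissue, summed to 6751 CPM in replicate 2 and 6536 CPM in replicate 1. It was led by Mir137 at 5168 and 5025 CPM and Mir153 at 509 and 508 CPM in the same order, and 9 of its 10 genes were in the table. The 3 copies of Mir124a, a hallmark of neurons, held 0 to 15 counts each in replicate 2 and 1 to 31 in replicate 1. Reads of a miRNA with several copies may be among those left out for mapping to several places, which was not measured.

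The family was a small part of the neural tube miRNAs and came mainly from Mir34c and Mir449a. All 6 genes together held 5654 counts in replicate 2 and 2905 in replicate 1. This was 0.0985% of the counts in replicate 2 and 0.0414% in replicate 1. A minimum of 10 counts per library was met by 4 of the 6 genes and by 371 of all 1973. The share of the family was higher in replicate 2, and Mir449a made most of that gap.

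Mir449a, the leading gene of the Cdc20b cluster and a driver of multiciliated cell differentiation, was counted 3051 times in replicate 2 and 590 times in replicate 1. That is 532 CPM in replicate 2 (Wilson 95% interval 513 to 551) and 84.1 CPM in replicate 1 (77.5 to 91.1), a mean of 308 ± 317 CPM (SD, n = 2). The SD exceeded the mean, and the gene ranked 103rd in replicate 2 and 197th in replicate 1. These intervals, and all others here, cover counting error only and not the spread between libraries. Without molecular identifiers, PCR copies of 1 molecule are counted separately, so the intervals may be too narrow even for counting error.

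Mir449b and Mir449c, the other genes of the Cdc20b cluster, were at the limit of detection. Mir449b had 5 counts in replicate 2 and 0 in replicate 1, where a count of 0 allows up to 0.427 CPM. Mir449c had 0 counts in replicate 2, which allows up to 0.523 CPM, and 2 in replicate 1. Mir449a thus held 99.8% of the cluster in replicate 2 and 99.7% in replicate 1. Its counts were 610 times those of Mir449b in replicate 2 (exact 95% interval 261 to 1881) and at least 197-fold higher in replicate 1, taking the limit of 3 counts per library. Against Mir449c they were at least 1017-fold higher in replicate 2 and 295 times as many in replicate 1 (81.3 to 2442). At these counts no difference between the libraries could be read for Mir449b or Mir449c.

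Mir34c, the main product of the Mir34b/c cluster, had 2313 counts in replicate 2 and 2028 in replicate 1. It stood at 403 CPM in replicate 2 (387 to 420) and 289 CPM in replicate 1 (277 to 302), with a mean of 346 ± 80.7 CPM (SD, n = 2). Mir34b, its partner, had 94 counts in replicate 2 and 93 in replicate 1, or 16.4 and 13.2 CPM, a mean of 14.8 ± 2.2. The pair kept nearly the same proportion in both libraries. Mir34c counts were 24.5 times those of Mir34b in replicate 2 and 21.7 times in replicate 1, a log2 ratio of 4.53 ± 0.12, and the exact intervals of the libraries overlapped (4.32 to 4.93 and 4.15 to 4.76).

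Mir34a, the p53 target expressed in many tissues, was the third of the family. It had 191 counts in replicate 2 and 192 in replicate 1. These were 33.3 CPM (28.9 to 38.4) and 27.4 CPM (23.8 to 31.5), a mean of 30.3 ± 4.2. Mir34a was above Mir34b in both libraries, with a log2 ratio of Mir34b to Mir34a of -1.02 in replicate 2 and -1.04 in replicate 1.

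**Figure D1:**
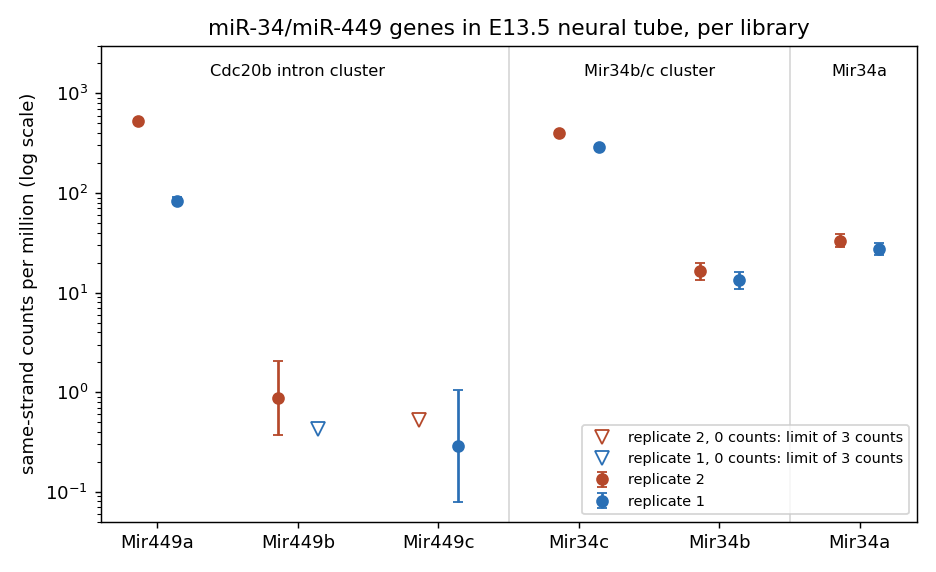
CPM of same-strand counts of the 6 genes (log axis), with replicate 2 left of replicate 1 for each gene. Points are single libraries, bars are Wilson 95% intervals, and open triangles mark the limit of 3 counts where a gene had 0. Mir449a stands at 532 in replicate 2 and 84.1 in replicate 1, while the points of Mir34b and of Mir34a lie close together.

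By mean level the order was Mir34c, Mir449a, Mir34a, Mir34b, Mir449b and Mir449c. Mir34c and Mir449a did not differ beyond their spread, and neither did Mir449b and Mir449c. Mir34a and Mir34b kept their order and stood below Mir34c and Mir449a in both libraries. By mean CPM, Mir34c stood between Mir28a (364 CPM) and Mir540 (337 CPM), and Mir449a between Mir185 (311 CPM) and Mir25 (305 CPM). Mir34a stood between Mir218-1 (30.3 CPM) and Mir200c (30.2 CPM). The SD of Mir449a was 317 CPM, against 30.8 CPM for Mir185 and 3.69 CPM for Mir25.

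A single gene carried most of the counts in both clusters of the family, which was common among miRNA clusters. Over 55 clusters of miRNA genes (neighbours within 10000 bases on 1 strand, at least 100 counts summed), the leading gene held a median of 87.0% of its cluster. In 23 of the 55 it held over 95%, among them the Cdc20b cluster at 99.7% and the Mir34b/c cluster at 95.9%. How many of the 55 hold copies whose reads map to several places was not counted. Counts also depend on how well each miRNA is ligated, so ratios between genes are ratios of counts and not of molecules.

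The order of the Cdc20b and Mir34b/c clusters was opposite in the 2 libraries. The Cdc20b cluster held 3056 counts in replicate 2 and 592 in replicate 1, the Mir34b/c cluster 2407 and 2121. The log2 ratio of the Cdc20b to the Mir34b/c cluster was 0.34 in replicate 2 (exact 95% interval 0.27 to 0.42) and -1.84 in replicate 1 (-1.98 to -1.71). The Cdc20b cluster thus had 1.27 times the counts of the Mir34b/c cluster in replicate 2, and the Mir34b/c cluster 3.58 times those of the Cdc20b cluster in replicate 1. The mean log2 ratio was -0.75 ± 1.54 (SD, n = 2), so neither cluster was the higher one beyond the spread of the libraries. No test was run on the ratios, since the smallest two-sided p that exact sign flips of 2 libraries allow is 0.5.

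Mir34a was the lowest of the 3 loci in both libraries. The Cdc20b cluster exceeded it by a log2 ratio of 4.0 in replicate 2 (3.79 to 4.22) and 1.62 in replicate 1 (1.39 to 1.87), a mean of 2.81 ± 1.68. The Mir34b/c cluster exceeded it by 3.65 in replicate 2 (3.44 to 3.88) and 3.46 in replicate 1 (3.25 to 3.69), a mean of 3.56 ± 0.13 or 11.8-fold. This was the one ratio between loci whose counting intervals overlapped between the libraries. These ratios were not divided by length, because the libraries hold RNA of mature miRNA size and the mature strands listed here are 21 to 23 nt long.

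Of the family's counts, the Cdc20b cluster made up 54.1% in replicate 2 (Wilson 95% interval 52.8 to 55.4) and 20.4% in replicate 1 (19.0 to 21.9). The Mir34b/c cluster made up 42.6% (41.3 to 43.9) in replicate 2 and 73.0% (71.4 to 74.6) in replicate 1. Mir34a made up 3.38% in replicate 2 and 6.61% in replicate 1. The main source of the family's counts was therefore not the same locus in the 2 libraries.

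**Figure D2:**
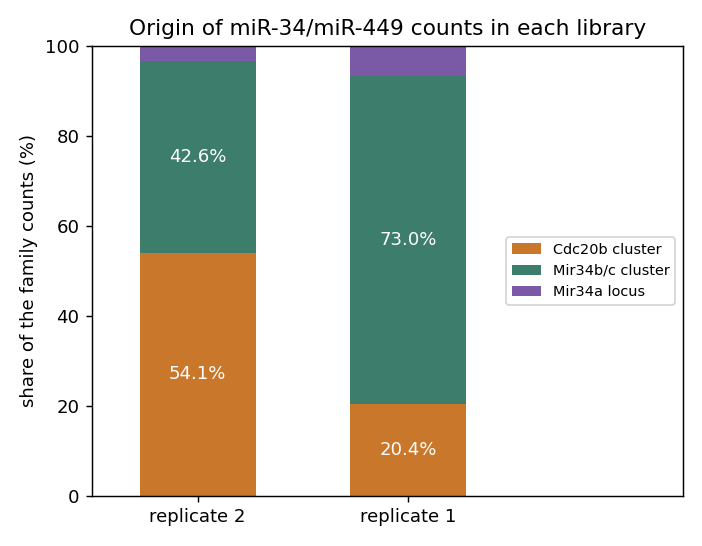
Share of the family's counts (%) from each locus, with replicate 2 on the left and replicate 1 on the right. The Cdc20b cluster takes 54.1% in replicate 2 and 20.4% in replicate 1.

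The difference between the libraries lay mainly in Mir449a. Differences are log2 ratios of replicate 2 to replicate 1, scaled by TMM (a scaling that rests on the bulk of the genes) with a pseudocount of 0.5. With 1 library on each side they carry no p-value. Mir449a was higher in replicate 2 by 2.63 (exact 95% interval 2.5 to 2.76), or 6.18-fold. Of 306 genes with at least 100 counts summed, this was the highest difference. Among the 4 members with that many counts, Mir449a was the only one past 1 log2 unit. Of all 306 genes, 9 (2.94%) passed 1 log2 unit in either direction, and 4 (1.31%) were higher in replicate 2 by that much.

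Mir34c was higher in replicate 2 by 0.45 (0.36 to 0.53), the 16th highest of the 306 differences. Mir34b was at 0.27 (-0.16 to 0.70) and Mir34a at 0.25 (-0.05 to 0.55), and the intervals of both include 0. All 4 members tested were above 0, with a median of 0.36, against 155 of the 306 genes and a median of 0.005. The central 95% of all 306 differences ran from -0.73 to 0.67, which holds Mir34c, Mir34b and Mir34a and leaves out Mir449a. As sums, the Cdc20b cluster differed by 2.62, the Mir34b/c cluster by 0.44 (0.36 to 0.53) and the whole family by 1.22 (1.15 to 1.28). Without Mir449a the remaining 5 genes differed by 0.43 (0.35 to 0.51). In bulk tissue, fewer cells of a type and less RNA per cell cannot be told apart.

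**Figure D3:**
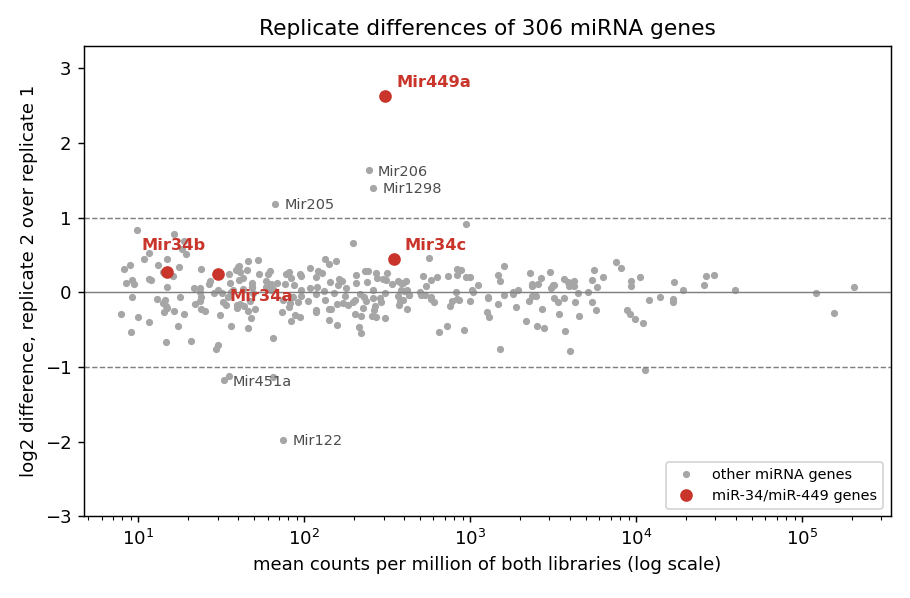
Log2 difference of replicate 2 over replicate 1 against mean CPM (log axis) for 306 miRNA genes with at least 100 counts summed, with dashed lines at 1 log2 unit. Mir449a lies at 2.63, above all other points, and Mir34c, Mir34b and Mir34a lie between 0.25 and 0.45.

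With a minimum of 100 counts summed (306 genes), the genes outside the family nearest to Mir449a in replicate difference, a likeness over 2 libraries only, were the other 3 that were higher in replicate 2 by over 1 log2 unit. Mir206, a skeletal muscle miRNA, differed by 1.63, with 2139 counts in replicate 2 and 824 in replicate 1. Mir1298, in the serotonin receptor gene Htr2c that choroid plexus cells express, had 2184 and 990, a difference of 1.40. Mir205, a miRNA of stratified epithelium, had 536 and 282, a difference of 1.18. The gap to Mir449a was 0.99 log2 units for the nearest of them. Since Mir449a had the highest difference of the 306 genes, its nearest genes could only be the next highest. The same 3 genes are members of the marker lists described next. With the same minimum, nearest to the Mir34b/c cluster were Mir466n at 0.44, Mir448 at 0.44 and Mir193b at 0.45. Mir448 lies in Htr2c as well.

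Markers of other cell types also differed between the libraries. The choroid plexus list, miRNAs in introns of Htr2c and of Trpm genes, had all 7 genes in the table and none at 0 in both libraries. It summed to 709 CPM in replicate 2 and 350 CPM in replicate 1, a log2 difference of 0.99 (0.91 to 1.06). All 4 of its genes with 100 counts were above 0, with Mir1298 at 1.40 and Mir204 at 0.66, and 1 of the 4 passed 1 log2 unit. Mir1298 alone held 381 CPM in replicate 2 and 141 CPM in replicate 1. Of the genes with fewer counts, Mir764 had 15 in replicate 2 and 8 in replicate 1, Mir1912 1 and 1, and Mir211 ran the other way with 8 and 11. The epithelial list of the miR-200 family, Mir203 and Mir205 summed to 865 CPM in replicate 2 and 607 CPM in replicate 1, a difference of 0.48 (0.42 to 0.54). None of its 7 genes was at 0 in both libraries. Mir203 was at 0.47 and Mir205 at 1.18, while Mir200c was at 0.03 and Mir200b at -0.19.

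The skeletal muscle list summed to 378 CPM in replicate 2 and 119 CPM in replicate 1, a difference of 1.64 (1.52 to 1.75). In the table were 5 of its 6 genes, and Mir206, the only 1 with 100 counts, was nearly all of the sum. Mir133b, of the same cluster as Mir206, held 29 counts in replicate 2 and 7 in replicate 1. Mir1a-1 ran the other way with 0 and 3 counts, and Mir133a-1 and Mir133a-2 were at 0 in both libraries. The liver and red cell list ran the other way, at 66.2 CPM in replicate 2 and 181 CPM in replicate 1, a difference of -1.48 (-1.66 to -1.32), with Mir122 at -1.98 and Mir451a at -1.18. The neural list differed by 0.01 (-0.01 to 0.03), a sum that was mostly Mir137 at 0.01. Of its 5 genes with 100 counts, 3 were above 0. Its genes with few counts were lower in replicate 2. Mir124a-2 had 15 counts in replicate 2 and 31 in replicate 1, Mir124a-1 8 and 14, Mir9-2 3 and 9, and Mir124a-3 0 and 1. The part that cell composition has in the Mir449a difference was not tested.

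The other p53-responsive miRNAs were listed because p53 activates Mir34a and Mir34b/c, but the part of p53 in the differences was not tested. The list summed to 7125 CPM in replicate 2 and 6279 CPM in replicate 1, a difference of 0.15 (0.13 to 0.17), and 7 of its 8 genes were in the table. Of its 5 genes with 100 counts, none passed 1 log2 unit and 3 were above 0, with a median of 0.03. Mir143, a smooth muscle miRNA, was at 0.17 and Mir107 at 0.09. The sum was mostly Mir143, at 5788 CPM in replicate 2 and 5024 CPM in replicate 1. The 5 genes ran from -0.27 for Mir145a to 0.17 for Mir143, and Mir34c at 0.45 (0.36 to 0.53) lay above them. Mir34a at 0.25 (-0.05 to 0.55) and Mir34b at 0.27 (-0.16 to 0.70) had intervals that include the value of Mir143 and 0. These intervals, and that of Mir34c, cover counting error only, so they cannot decide whether a member differs from the list. The central range of all 306 differences given above, -0.73 to 0.67, holds Mir34c, Mir34a, Mir34b and all 5 of these listed genes.

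**Figure D4:**
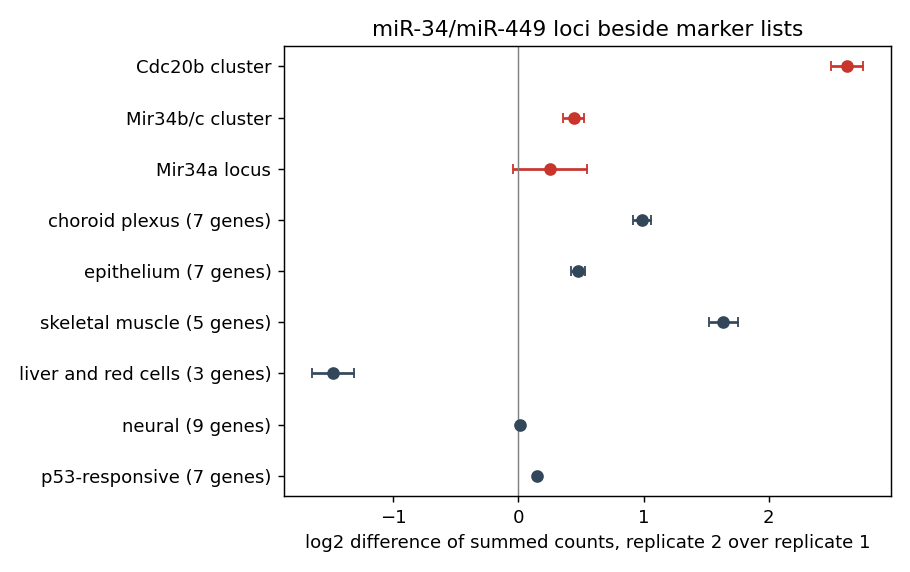
Log2 difference of summed counts, replicate 2 over replicate 1, for the 3 loci of the family (red) and the marker lists (blue), with exact 95% counting intervals. The Cdc20b cluster at 2.62 lies right of all lists, of which skeletal muscle is the highest at 1.64 and liver and red cells the lowest at -1.48.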

How the data were processed

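Per the deposited file notes, the tables hold raw counts per miRNA gene on mm10 with annotation M4; aligner and counter: not given in the sources used here. Every table opens with 4 lines of reads in no gene, which stayed out of the main totals. They entered only the percentages of all reads and the alternative with all reads as the total. The second count column was taken as same-strand, since it held 5738209 counts in replicate 2, where the third column held 85834, and 7019469 in replicate 1, where the third held 100058. GENCODE M21 names matched 1894 of 1973 identifiers, all members among them. TMM factors came from edgeR 4.0.16 over the 371 genes that reached 10 counts in both libraries, DESeq2 1.42.0 size factors were an alternative, and intervals came from scipy 1.17.1. The calculation was tested on simulated data. The members, lists and the rule for named genes (all members, nearest replicate differences, nearest mean CPM and the leading genes of each list) were chosen with earlier results of these data known; Mir34b to Mir34a, the cluster survey, Mir124a, Mir133a, Mir200b and Mir200c were added after the values were seen. No p-value was computed.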

Additional observations from a re-analysis of the deposited data

How the results depend on the processing

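No paired analysis was possible because there is 1 group. Leaving out a library reversed the ratio of the Cdc20b to the Mir34b/c cluster, with a log2 range of -1.84 to 0.34. For levels, a single library of 2 always lies within 1 SD of the mean, so leaving one out shows nothing about stability. With Mir10a left out of the total, the Cdc20b cluster stood at 390.5 CPM, the Mir34b/c cluster at 454 CPM and Mir34a at 38.2 CPM, and with all reads as the total at 164.5, 190 and 15.9 CPM, as the totals themselves imply. Divided by gene length, a choice made after seeing the data, the log2 ratio of the Mir34b/c cluster to Mir34a was 3.96. The family's replicate difference without Mir449a, also added afterwards, was 0.43. With a minimum of 10 counts summed, 9.23% of genes passed 1 log2 unit. The Mir449a difference ran from 2.60 to 2.66 over its 8 alternatives. No ratio between loci and no replicate difference changed direction under the alternatives that kept both libraries. For Mir449a, Mir449b, Mir449c and the Cdc20b cluster the replicate SD exceeds the mean, so it is no measure of stability. Few counts limit Mir34b, Mir449b and Mir449c most.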
